A study of Homo sapiens with 4 samples.

Results

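The miR-105/miR-767 cluster is a group of 3 small hairpins on the X chromosome that yields the mature microRNAs (miRNAs) hsa-miR-105-5p, hsa-miR-105-3p and hsa-miR-767-5p. These 3 members were found by name in the deposited tables of extracellular vesicle (EV) miRNAs, out of 1619 miRNAs listed in all. The table of replicate 1 listed 2 members among 1315 miRNAs, without hsa-miR-105-3p, and the table of replicate 2 listed all 3 among 843. The other arm of the miR-767 hairpin, hsa-miR-767-3p, was listed in both tables and is given beside the members.

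EVs were collected from the wild-type cell line MDA-MB-231, which is established from a triple-negative breast cancer and was grown with 10% fetal bovine serum. At 90% confluence the cells were changed to EV-free medium (group 231 EV, 2 libraries) or to glucose-free medium (group 231 -G EV, 2 libraries) for 12 h, and EVs were pelleted at 110000 × g for 70 min. RNA of the pair numbered 1 had interfering modifications taken off before the adapters were ligated (inserts of 14 to 40 nt), whereas the pair numbered 2 was built with an NEBNext kit. A number therefore names a pair with 1 preparation. The labels do not say whether the replicates were separate cultures, and the preparation cannot be told apart from other differences between the pairs.

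A miRNA hairpin is cut into a 5p and a 3p arm, and the arm that is loaded into an Argonaute protein pairs through its seed, bases 2 to 8, with target messenger RNAs. The miR-105/miR-767 cluster belongs to the cancer-germline (cancer-testis) genes, which are silenced by DNA methylation in most adult tissues, active in the germline and switched on again in some tumours. MiR-105 is known as an EV signal of metastatic breast cancer cells that lowers the tight junction protein ZO-1 in endothelial cells, and miR-767-5p is known to repress the DNA demethylases TET1 and TET3.

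The mature sequences (RefSeq, GRCh38.p14, 5′ to 3′) are shown because the results below turn on the 2 arms of miR-105 and on the seed of miR-767-5p. Capitals mark the seed, bases 2 to 8.
hsa-miR-105-5p: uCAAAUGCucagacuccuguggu
hsa-miR-105-3p: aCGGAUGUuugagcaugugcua
hsa-miR-767-5p: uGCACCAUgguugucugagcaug

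The genes MIR105-1, MIR767 and MIR105-2 lie in that order at chrX:152392219-152392299, chrX:152393421-152393529 and chrX:152394412-152394492 on the minus strand. In GENCODE 29 all 3 are in intron 1 of the principal transcript of GABRA3, a GABA receptor subunit gene on the same strand, and overlap no exon of it. Hsa-miR-105-5p is encoded at chrX:152392265-152392287 in MIR105-1 and at chrX:152394458-152394480 in MIR105-2. Hsa-miR-105-3p is encoded at chrX:152392228-152392249 and chrX:152394421-152394442, and hsa-miR-767-5p at chrX:152393481-152393503. The 2 miR-105 hairpins are each 81 nt and differ at 2 bases, C43U and C73U, with the base of MIR105-1 first and positions counted from the 5′ end of the hairpin. Both changes are outside the mature arms, so a mature miR-105 read cannot be given to 1 of the 2 genes.

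The 3 seeds differ from each other. The only other human miRNA in the RefSeq table with the seed of a member was hsa-miR-7853-5p, which shares that of hsa-miR-105-5p. It was listed for replicate 1 alone and had 0 reads in both libraries. The closest other mature miRNA in that table was 7 base edits away from each member. The longest run shared by 2 members is UGAGCAUG, in hsa-miR-105-3p and hsa-miR-767-5p.

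The seed letters of hsa-miR-767-5p, GCACCAU, also stand in the miR-29 family, shifted by 1 base to positions 3 to 9. MiR-29 is a family known for repressing collagen and DNA methylation genes. The 3 sequences are shown with the shared letters in capitals.
hsa-miR-29a-3p: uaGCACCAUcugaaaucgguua
hsa-miR-29b-3p: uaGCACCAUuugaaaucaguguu
hsa-miR-29c-3p: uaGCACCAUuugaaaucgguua
Of the 1423 listed miRNAs with a RefSeq sequence, 0.281% hold these letters, and these are the 4 miRNAs named. The motifs GGAG and CCCU, which have been linked with the loading of miRNAs into EVs, and CAUUG, which the study examined in miR-33a-5p, were searched on the mature strand. None of the 3 members holds any of them, against 18.3%, 9.07% and 1.97% of the listed miRNAs. This says only that these letters are not in the mature sequences.

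Depth differed widely between the pairs. The libraries of replicate 1 held 18397 and 15597 reads and those of replicate 2 held 224966 and 170894, for 231 EV and 231 -G EV. Levels are given as CPM, the reads of a miRNA over the library total times 1000000. The line's labelled identity was checked on marker lists. Hsa-miR-21-5p, hsa-miR-221-3p, hsa-miR-222-3p and hsa-miR-100-5p, high in mesenchymal-like cells, held 35.9% and 28.7% of the reads in replicate 2. Most of this was hsa-miR-21-5p, which alone held 30.2% and 23.3%. The 8 epithelial miRNAs of the miR-200 family, miR-203a, miR-205 and miR-375 held 0.0880% and 0.0217%. Of these, hsa-miR-205-5p had 109 reads in 231 EV and 3 in 231 -G EV of replicate 2 (ratio 0.0362, Fisher's exact test, adjusted p 1.14e-21). It was picked for its size of change, and its part in the results below was not tested. Its reads in replicate 1 were 0 and 1. By the same test 3 of the 8 were higher in 231 -G EV of replicate 1 and 0 lower, against 7.91% and 1.79% of the 670 miRNAs tested there. In replicate 1 the mesenchymal list held 2.09% and 3.01%, the epithelial list 0.114% and 0.660%, and 6 blood-cell miRNAs more than either. Hsa-miR-182-5p, at 51.0% of 231 EV replicate 1 and 2.73% of 231 -G EV replicate 1, set that library apart.

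All 3 members had reads in replicate 2, and both members listed for replicate 1 were at 0 there. The reads of hsa-miR-105-3p in replicate 1 are unknown, since an unlisted miRNA is not a count of 0. In EV-free medium hsa-miR-105-5p had 0 reads in replicate 1 and 62 in replicate 2, and without glucose it had 0 and 28. Hsa-miR-767-5p had 0 and 76 reads in EV-free medium and 0 and 71 without glucose. Hsa-miR-105-3p, listed for replicate 2 alone, had 2 reads with glucose and 13 without. Each of the 3 was thus seen in both media of replicate 2. The partner arm hsa-miR-767-3p had 0 and 7 reads in EV-free medium and 0 and 3 without glucose. The plot of CPM by library shows these levels with their counting error.

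**Figure D1:**
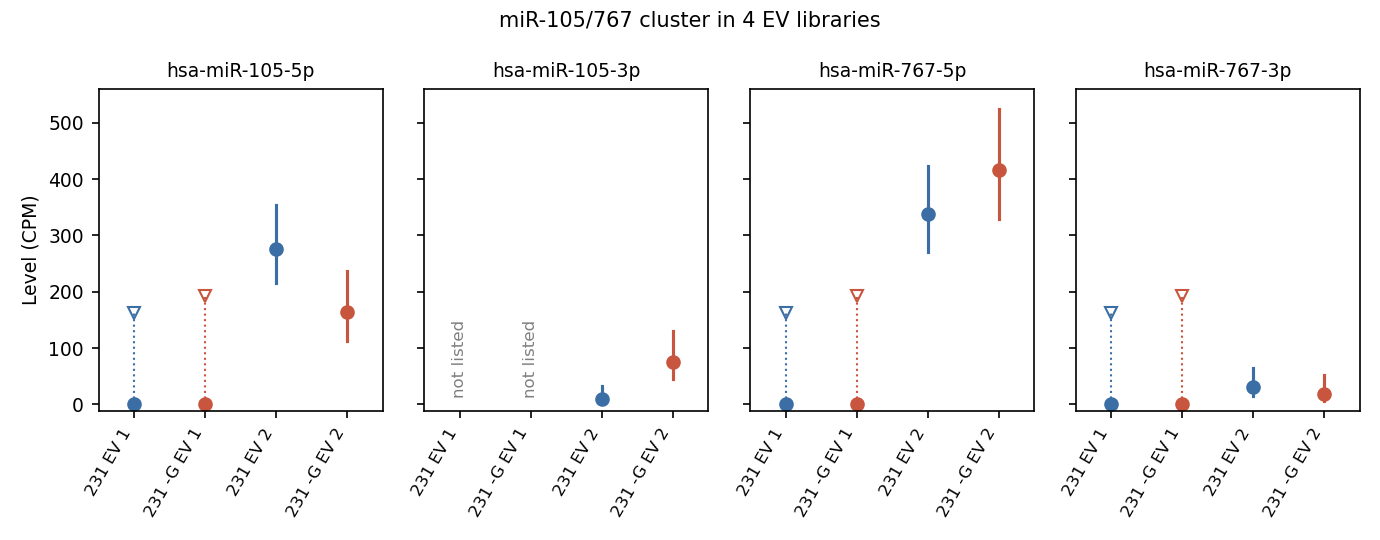
Level of each miRNA of the cluster (CPM, vertical axis) in the 4 libraries (horizontal axis; blue 231 EV, red 231 -G EV), with 95% Wilson intervals as bars and, for a count of 0, an open triangle at the limit that 3 reads give. All listed values of replicate 1 are 0, and in replicate 2 the intervals of the 2 media are apart for hsa-miR-105-3p and overlap for the other 3 miRNAs.

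The 0 in replicate 1 was set against its depth. A count of 0 allows up to 3 reads, or 163 CPM in 231 EV replicate 1 and 192 CPM in 231 -G EV replicate 1. At the share it held in 231 EV replicate 2, hsa-miR-105-5p would have had 5.07 reads in 231 EV replicate 1 (3.96 to 6.50, from the Wilson interval of that share). At the share in 231 -G EV replicate 2 it would have had 2.56 reads (1.77 to 3.69) in 231 -G EV replicate 1, a range that spans the limit, so its absence there could not be told from depth.

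Hsa-miR-767-5p would have had 6.22 reads (4.97 to 7.78) in 231 EV replicate 1 and 6.48 (5.14 to 8.17) in 231 -G EV replicate 1, both above the limit. The values for 231 EV replicate 1 rest on a total of which hsa-miR-182-5p held 51.0%. With that miRNA left out of all totals, a choice made after seeing the data, they were 2.49 reads (1.94 to 3.19) for hsa-miR-105-5p and 3.05 (2.44 to 3.82) for hsa-miR-767-5p, both spanning the limit. Only the value of hsa-miR-767-5p in 231 -G EV replicate 1, then 6.32 (5.01 to 7.97), stayed above it. That library had its own dominant miRNA, hsa-miR-451a, with 40.8% of its reads, against 398 CPM in 231 -G EV replicate 2. The value was not computed without hsa-miR-451a, so whether it would stay above the limit is not known. Hsa-miR-767-3p would have had under 1 read in each library of replicate 1, 0.572 and 0.274. Other miRNAs of like level were also at 0. Of the 73 miRNAs listed in both tables with 31 to 152 reads in 231 EV replicate 2, a range that spans and includes both 5p members, 16 (21.9%) had 0 reads in both libraries of replicate 1. The median of the 73 was 2 reads over both libraries of that replicate.

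In replicate 2 the 5p arms had more reads than the 3p arms. In 231 EV, hsa-miR-767-5p stood at 338 CPM (95% Wilson interval 270 to 423) and ranked 114 of 531 detected miRNAs. Hsa-miR-105-5p followed at 276 CPM (215 to 353), rank 124. Hsa-miR-767-3p stood at 31.1 CPM (15.1 to 64.2) and hsa-miR-105-3p at 8.89 CPM (2.44 to 32.4), ranks 256 and 357. The intervals of the 2 5p arms overlapped, as did those of the 2 3p arms, while both 5p arms lay above both 3p arms.

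In 231 -G EV replicate 2, hsa-miR-767-5p stood at 415 CPM (329 to 524), rank 104 of 492, and hsa-miR-105-5p at 164 CPM (113 to 237), rank 149. Hsa-miR-105-3p stood at 76.1 CPM (44.5 to 130), rank 195, and hsa-miR-767-3p at 17.6 CPM (5.97 to 51.6), rank 282. The interval of hsa-miR-767-5p was now clear of that of hsa-miR-105-5p, while those of the 2 miR-105 arms overlapped. The order of the 3p arms was therefore turned between the media, although their intervals touched in both libraries.

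To ask whether glucose starvation changed the cluster in EVs, 231 -G EV was compared with 231 EV within each pair. Pair 1 gave no ratio for any member, since hsa-miR-105-5p and hsa-miR-767-5p were at 0 in both libraries and hsa-miR-105-3p was not listed. No member was thus among the 670 miRNAs tested there, of which 7.91% were called higher in 231 -G EV, 1.79% lower and 9.7% either way. In pair 2 the 3p arm of miR-105 was called and the 5p arm was not. Hsa-miR-105-3p was higher in 231 -G EV, with a CPM ratio of 8.56 and a 95% exact interval of 1.94 to 78.1, on 13 reads against 2 (Fisher's exact test, two-sided, p 0.000891, adjusted p 0.00648 over 618 miRNAs). Its level in 231 EV rested on fewer reads than the 3 that a count of 0 allows, and the interval of the ratio is accordingly wide.

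Hsa-miR-105-5p had a ratio of 0.595 (0.366 to 0.943; Fisher's exact p 0.0249), and its adjusted p of 0.117 missed the threshold. Relative to hsa-miR-16-5p, one of the RT-qPCR references of the study, it passed with a ratio of 0.377 (0.232 to 0.599; Fisher's exact p 1.01e-05, unadjusted). That reference itself stood at 70384 CPM in 231 EV and 110917 CPM in 231 -G EV, a ratio of 1.58 (1.54 to 1.61) by which values relative to it are lowered. Hsa-miR-767-5p had a ratio of 1.23 (0.877 to 1.72; Fisher's exact p 0.213, adjusted p 0.536), so that a ratio of 1 lay within its interval. Relative to hsa-miR-16-5p its direction turned, to 0.780 (0.556 to 1.09), again with 1 in the interval. Hsa-miR-767-3p had a ratio of 0.564 (0.0941 to 2.47) on 7 and 3 reads, with an adjusted p of 0.803 (Fisher's exact test). In pair 2 as a whole, 9.87% of the 618 miRNAs with a read were called higher in 231 -G EV and 8.74% lower (18.6% either way), and 1 of the 3 members was called. The tests on reads compare 2 libraries, not the media, and cover counting error only. In bulk EV RNA, fewer EVs that carry a miRNA and fewer copies per EV cannot be told apart.

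**Figure D2:**
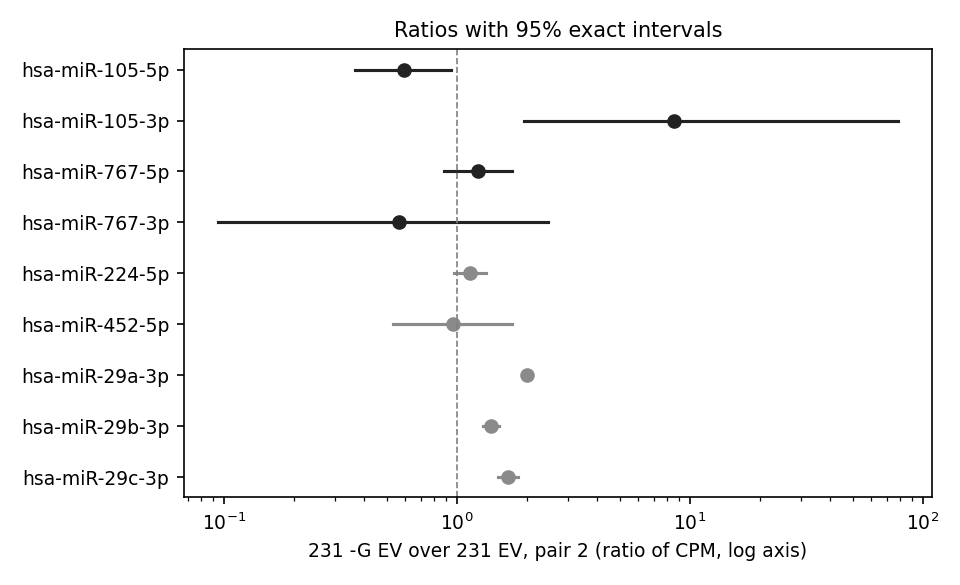
Ratio of CPM in 231 -G EV over 231 EV in pair 2 (log axis) with 95% exact intervals, for the cluster (black) and for 5 miRNAs listed as neighbours on Xq28 or as miR-29 family members (grey). The dashed line is a ratio of 1. Hsa-miR-105-3p lies at 8.56, hsa-miR-105-5p at 0.595 and hsa-miR-767-5p at 1.23.

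The balance of the arms was tested next, because it needs no library total. Reads of the 5p arm made up 62 of 64 miR-105 reads in 231 EV replicate 2, or 96.9% (Wilson interval 89.3 to 99.1). In 231 -G EV replicate 2 they made up 28 of 41, or 68.3% (53.0 to 80.4). The odds of the 5p arm were 14.0-fold lower in 231 -G EV, with an exact interval of 2.89 to 136 (Fisher's exact test, two-sided, p 6.8e-05, adjusted p 0.00103 over 136 hairpins). The intervals of the 2 arm shares did not overlap.

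The sum of both miR-105 arms was 284 CPM in 231 EV and 240 CPM in 231 -G EV, a ratio of 0.843 with an exact interval of 0.555 to 1.27 that spans 1. Hsa-miR-767, cut from the hairpin between the 2 miR-105 genes, had a 5p share of 91.6% (83.6 to 95.9) in 231 EV replicate 2 and 95.9% (88.7 to 98.6) in 231 -G EV replicate 2 (Fisher's exact test, adjusted p 0.748). The arm changes of miR-105 and miR-767 differed from each other (exact test of equal odds ratios, two-sided, p 0.000791). This test was added after the values were seen.

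Arm balance changed in other hairpins as well. All 136 hairpin names with reads of both arms and in both libraries of pair 2 were tested alike, and 12.5% were called, 7.35% with a lower 5p share in 231 -G EV. MiR-105 ranked ninth by p. The 2 arms went opposite ways in 53.7% of the hairpins, with both arms called for reads in 3.68%, and miR-105 was not among the latter because its 5p arm missed the threshold. Of the 81 hairpins with at least 41 reads in each library, the number miR-105 itself had in 231 -G EV, the change of 28.6 percentage points in miR-105 was exceeded by 1 other, hsa-miR-1307 with 52.3. Hsa-miR-339 came next with 28.55. The median absolute change was 1.57 points for these 81 and 4.22 points for all 136. Some hairpins below that depth changed by more than miR-105, such as hsa-miR-331 with 40.5 points. In pair 1, 0 of 64 hairpins were called by this test, and miR-105 could not be tested there. Reads were few in that pair. Hsa-miR-1307 had 0 and 2 reads of its 5p arm and 0 and 1 of its 3p arm, in 231 EV and 231 -G EV. The 0 of 64 can therefore not be set against the calls of pair 2.

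**Figure D3:**
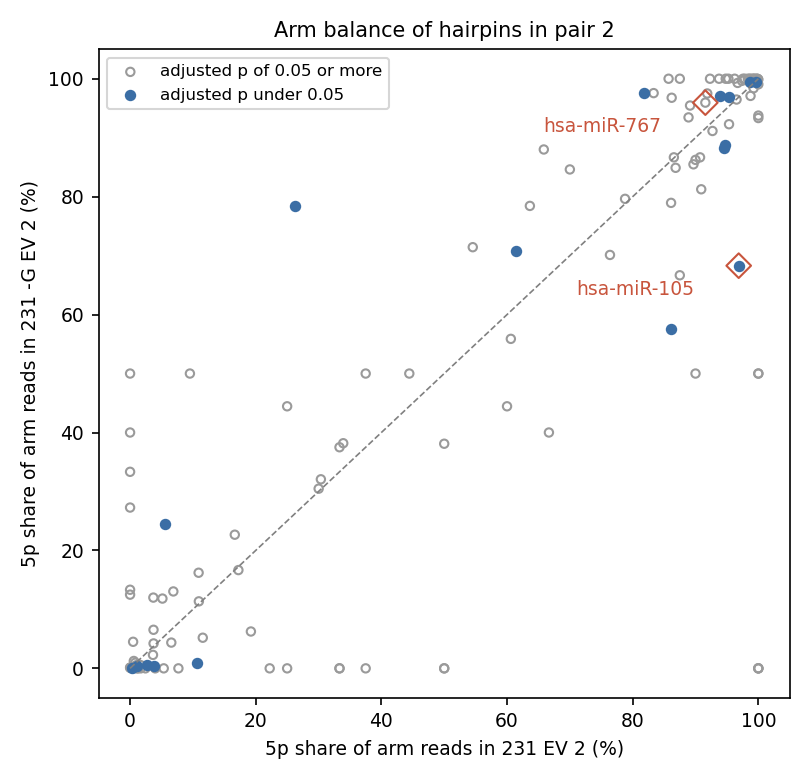
Share of the 5p arm among the reads of both arms (%) in 231 EV replicate 2 (horizontal axis) and 231 -G EV replicate 2 (vertical axis) for 136 hairpins. Filled points passed an adjusted p of 0.05 by Fisher's exact test, diamonds mark hsa-miR-105 and hsa-miR-767, and the dashed line is equality. Hsa-miR-105 lies at 96.9% and 68.3%, below the line, and hsa-miR-767 at 91.6% and 95.9%, close to it.

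The ratio between the 5p members, which does not depend on library totals either, also moved. In 231 EV replicate 2 there were 62 reads of hsa-miR-105-5p beside 76 of hsa-miR-767-5p, a ratio of 0.816, and in 231 -G EV replicate 2 there were 28 beside 71, a ratio of 0.394. The odds ratio was 0.485 with an exact interval of 0.267 to 0.867, which did not reach 1. Hsa-miR-105-3p moved the other way against hsa-miR-767-5p, with 2 beside 76 and 13 beside 71 reads and an odds ratio of 6.89 (1.48 to 65.0). These were 2 of 3 ratios between members, the third being the arm balance of miR-105. The 3 members together held 622 CPM (527 to 734) in 231 EV replicate 2 and 655 CPM (545 to 788) in 231 -G EV replicate 2, and these intervals overlapped.

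The totals of pair 2 bear on these values. Hsa-miR-21-5p held 30.2% of 231 EV replicate 2 and 23.3% of 231 -G EV replicate 2. Without it in the totals the ratio of hsa-miR-105-5p was 0.541 and its adjusted p was 0.0335 (Fisher's exact test), past the threshold, and hsa-miR-105-3p kept its call. The 6 blood-cell miRNAs, listed as markers of serum carry-over, were all called lower in 231 -G EV of pair 2, against 8.74% of all 618, and their summed share went from 0.874% to 0.377%. In pair 1 hsa-miR-451a and hsa-miR-486-5p were called higher, against 7.91% of all 670, and 0 of the 6 lower. The summed share there, 20.1% and 42.8%, was mostly hsa-miR-451a with 3577 of 3692 and 6364 of 6683 reads. Hsa-miR-182-5p held 51.0% of 231 EV and 2.73% of 231 -G EV in pair 1, which lowers all other shares in that 231 EV library. Neither these shares nor the pair 1 calls were recomputed without it. In pair 2 the ratios of the 6 blood-cell miRNAs ranged from 0.303 to 0.529, next to 0.595 for hsa-miR-105-5p. Their part in the result was not tested.

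Over both pairs together, the quasi-likelihood model of edgeR, blocked by replicate number, took in 2 of the 3 members, hsa-miR-105-5p and hsa-miR-767-5p, since hsa-miR-105-3p was listed in a single table. Their reads came from pair 2 alone. By edgeR, hsa-miR-105-5p had a log2 fold change of -0.74 with an SE of 1.58 (adjusted p 0.999), and hsa-miR-767-5p one of 0.30 with an SE of 1.46 (adjusted p 0.999). The test called 0 of 384 miRNAs, 0% in either direction, with 5 at an unadjusted p under 0.05. DESeq2 and limma also called 0, with 6 and 13 at an unadjusted p under 0.05. The median log2 fold change of the 384 was 0.20, with 60.2% above 0. TMM scaling moved this median to -0.14, with 43.2% above 0, and the members to -0.83 and 0.21. The SEs are larger than the fold changes, so changes of this size could not be told from 0 over 2 pairs, of which 1 had no reads of these members.

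The other miRNAs of the X chromosome were compared in pair 2. MiRNAs were placed by their hairpin genes in RefSeq, which gave a gene for 808 of the 810 named miRNAs of that table. Of the 65 miRNAs with a read whose genes lie on X alone, hsa-miR-767-5p and hsa-miR-105-5p ranked 12 and 13 by reads in 231 EV and 11 and 17 in 231 -G EV. Hsa-miR-361-3p and hsa-miR-532-5p, with 81 and 51 reads, stood on either side of them in 231 EV. The 3 members made up 1.95% and 1.64% of the X-linked reads, which were led by hsa-miR-221-3p with 4346 and 4463. By Fisher's exact test 8 of the 65 were higher in 231 -G EV and 5 lower after adjustment over all 618, where 9.87% and 8.74% were, and hsa-miR-105-3p was among the former.

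**Figure D4:**
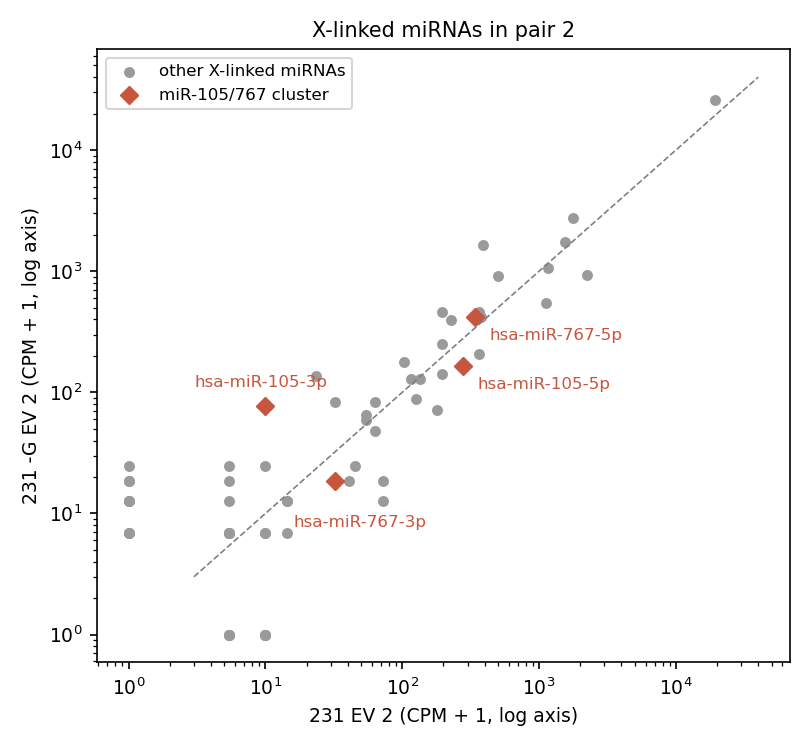
CPM + 1 of the 65 X-linked miRNAs in 231 EV replicate 2 (horizontal, log axis) and 231 -G EV replicate 2 (vertical, log axis). Diamonds mark the 4 miRNAs of the miR-105/miR-767 cluster and the dashed line is equality. Hsa-miR-767-5p and hsa-miR-105-5p lie in the upper middle of the range, and hsa-miR-105-3p lies above the line.

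On Xq28, hsa-miR-224-5p and hsa-miR-452-5p come from an intron of GABRE, another GABA receptor subunit gene. In EV-free medium hsa-miR-224-5p had 3 reads in replicate 1 and 348 in replicate 2, and without glucose it had 2 and 300. Hsa-miR-452-5p had 0 and 30 with glucose, and 0 and 22 without. Their ratios in pair 2 were 1.13 (0.969 to 1.33) and 0.965 (0.531 to 1.73), neither of them called. The 3 miR-29 miRNAs, which share the seed letters of hsa-miR-767-5p, were all higher in 231 -G EV of pair 2, against 9.87% of all 618, with ratios of 2.00 for hsa-miR-29a-3p, 1.40 for hsa-miR-29b-3p and 1.66 for hsa-miR-29c-3p and exact intervals that all lay above 1. None of the 3 was called in pair 1, where hsa-miR-29a-3p had 9 reads with glucose and 15 without, hsa-miR-29b-3p 6 and 3, and hsa-miR-29c-3p 3 and 0. The edgeR log2 fold changes over both pairs were 0.99, 0.04 and -0.10, none of them called. In replicate 2 the 3 miR-29 miRNAs held 5.48% and 10.6% of the reads, against 0.0338% and 0.0415% for hsa-miR-767-5p. In replicate 1 they held 0.0978% and 0.115%, where hsa-miR-767-5p was at 0.

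The miRNAs whose levels were most like those of each member were sought as the smallest root mean square difference of log2(CPM + 10). For hsa-miR-105-5p, over 4 libraries, they were hsa-miR-99b-3p (0.23, with 64 and 39 reads in pair 2), hsa-miR-197-3p (0.27) and hsa-miR-365a-3p (0.31), the last tied with hsa-miR-365b-3p, which has the same counts. For hsa-miR-767-5p they were hsa-miR-301a-3p (0.22, with 103 and 68 reads in pair 2), hsa-miR-99b-3p (0.44) and hsa-miR-149-5p (0.46). All of these had 0 reads in both libraries of replicate 1, as did both of these members. For hsa-miR-105-3p, over the 2 libraries of replicate 2, they were hsa-miR-548a-3p (0.23, with 3 and 12 reads), hsa-miR-887-3p (0.35, with 2 and 19) and hsa-miR-4485-3p (0.39, with 4 and 13).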

How the data were processed

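The authors deposited whole-number read counts per mature miRNA, beside CPM for replicate 1 and TPM for replicate 2. Both deposited units, CPM and TPM alike, equalled the count over the library total times 1000000, with no length term. According to the study's methods, reads were trimmed, cleared of other small RNAs with Rfam 10.1 and matched to miRBase 21.0, with no distinction between the 2 preparations. Per the submitters' processing notes the build was hg38. RefSeq sequences (GRCh38.p14) and GENCODE 29 were used for positions.

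The members, lists and tests were chosen with earlier results of these data known. Named miRNAs were the members, miRNAs sharing a member's seed, the listed groups, and 3 nearest by level for each member. The main test was edgeR 4.0.16 (R 4.3.3, quasi-likelihood) on counts of 384 miRNAs that both tables list and that had reads in 2 or more libraries, with deposited totals and the replicate number as a block. Calls required an absolute log2 fold change over 1 together with a Benjamini-Hochberg adjusted p below 0.05. SEs were taken as the absolute log2 fold change over the square root of F. The block came from the labels, by which a number marks a preparation, and deviations of same-numbered libraries had a correlation of 0.60. With 2 libraries a group, p-values measure only the spread between these libraries, which may be technical. Within pairs, reads of each miRNA were compared by two-sided Fisher's exact tests (SciPy 1.17.1), adjusted over the miRNAs of the pair. A test of arm balance over all hairpins was added after the values were seen. Ratios have exact conditional intervals and shares have Wilson intervals, both at 95%. Because reads carried no molecular identifiers and PCR copies are not independent, these cover counting error only. Alternatives were TMM, DESeq2 1.42.0, limma 3.58.1, other filters, totals and pseudocounts, and no block. The tests were run on simulated data with known changes. There the Fisher test also called miRNAs that were left unchanged in a pair in which others rose, because it compares shares of a library, so a call of one miRNA is a change of its share.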

Additional observations from a re-analysis of the deposited data

How the results depend on the processing

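The fold changes of hsa-miR-105-5p and hsa-miR-767-5p over both pairs kept their direction under 9 alternatives, between -0.87 and -0.37 and between 0.12 and 0.30 on the log2 scale, and stayed uncalled under the 8 of these that had a test. Without the replicate block they were -0.67 and 0.29 (edgeR adjusted p 1.00 for both), and no call was changed. Without replicate 1 they were -0.75 and 0.30, as values with no test. Without replicate 2 no value could be formed, nor could a test stratified by pair, since in pair 1 hsa-miR-105-5p and hsa-miR-767-5p were at 0 and hsa-miR-105-3p was not listed. The number of miRNAs called over both pairs rose from 0 to 1 with every miRNA above 0 in any library, to 2 with at least 10 reads in all, and to 1 when the totals omitted hsa-miR-182-5p. The called miRNAs, hsa-miR-206 and hsa-miR-449c-5p, rested on 231 -G EV replicate 1 (98 and 58 reads). Within pair 2 the ratio of hsa-miR-105-5p was 0.541 and passed the threshold when the totals omitted hsa-miR-21-5p. It was 0.377 relative to hsa-miR-16-5p and passed there too. The ratio of hsa-miR-767-5p turned to 0.780 relative to hsa-miR-16-5p, which itself was 1.58 times as high in 231 -G EV. That of hsa-miR-105-3p stayed above 1 under 6 alternatives, from 5.43 to 8.56, but with a pseudocount of 100 CPM its log2 fold of 2.96 shrank to 0.69, because its level is below that pseudocount. The arm balance of miR-105 uses no total. Depth limits all results, since each read stood for 54.4 or 64.1 CPM in replicate 1, and for 4.45 or 5.85 CPM in replicate 2.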

Other observations

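MiRNAs of the Xq27 testis clusters, miR-506 to miR-514 and miR-888 to miR-892, had few reads. Of the 30 mature miRNAs on that list, 9 were listed in each table and 4 had a read in each pair. Their reads summed to 3 in each library of replicate 1, and in replicate 2 to 25 with glucose and 17 without. Hsa-miR-891a-5p had the most, 12 and 11 reads in replicate 2, and hsa-miR-888-5p had 9 and 3. The miR-105 and miR-767 members summed to 140 and 112 reads in replicate 2.

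Of 14 miRNAs listed as reported cargo of breast cancer EVs, all had a read in pair 2. By Fisher's exact test 2 were higher in 231 -G EV and 4 lower there, against 9.87% and 8.74% of all 618, with a median log2 ratio of -0.80 beside -0.09 over the 618. In pair 1, 13 had a read, 5 were higher and 0 lower, against 7.91% and 1.79% of 670. With glucose hsa-miR-122-5p, a liver miRNA, had 17 reads in pair 1 and 298 in pair 2, and without glucose 48 and 90. Hsa-miR-10b-5p, named after its values were seen, had 24 and 59 with glucose, and 60 and 15 without. Hsa-miR-21-5p had 356 and 68029 with glucose, and 430 and 39805 without. These 3 of the 14 were called higher without glucose in pair 1 and lower in pair 2. The pair 1 calls rest on totals of which hsa-miR-182-5p held 51.0% in 231 EV and 2.73% in 231 -G EV. That lowers the shares of all other miRNAs in 231 EV, and the calls were not repeated without it. A turn of direction between the pairs can therefore not be told apart from this difference. Over both pairs the edgeR log2 fold changes of the 14 had a median of 0.10, beside 0.20 over the 384 tested.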
